A study of Mus musculus with 12 samples.

Results

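Rab25 and 8 other genes of recycling and epithelial vesicle sorting were followed in tumours of 3 mouse lung adenocarcinoma lines. The genes were taken by symbol, with earlier results of these data known. They come from the Rab11 family, its effectors and the sorting adaptors and membrane proteins of epithelial cells: Rab25, Rab11a, Rab11b, Rab11fip1, Myo5b, Ap1m2, Ap1m1, Mal2 and Lsr. All 9 were on the array, with 17 probe sets among the 34958 that have a single gene symbol, and they are 9 of 18194 genes tested. The values table holds 45101 probe sets, more than the Affymetrix chip named in the design text carries, so the chip is not settled by that text. Probe sets were given gene symbols through GEO's annotation of the platform. Where a gene has several probe sets, its values come from the one that was brightest on average, and the others serve as a check. A level is log2(intensity + 16) and a change is a difference of mean levels, so the change of a gene near the table's floor (4.09 on this scale) is understated.

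Total RNA was measured on 4 arrays each of 344SQ, 393LN and 393P. All 3 lines were grown as mass populations, with no cloning step described, from tumours of mice that carry the mutant p53 allele p53R172H∆g/+ and the activated K-ras allele K-rasLA1/+. 344SQ came from a subcutaneous site and is labelled highly metastatic, 393LN from a mediastinal lymph node and labelled intermediately metastatic, and 393P from a primary lung tumour and labelled non-metastatic. The design text describes frozen tumours of these lines grown in syngeneic mice, and gives neither the strain nor the age of the hosts. 393LN and 393P came from the same mouse and 344SQ from another, so line and mouse of origin cannot be told apart in any comparison with 344SQ. The labels do not say whether the 4 arrays of a line came from 4 host animals, so p-values measure the spread between these samples, which may be technical. Each sample title carries its own code, whose meaning is not given. The codes of 393LN are all numbered below those of the other lines.

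Rab11 proteins are small GTPases that mark recycling endosomes, through which internalised receptors return to the cell surface. Rab11a and Rab11b are found in most cell types, whereas Rab25 is a close relative largely restricted to epithelia, where it acts at the apical recycling endosome. The adaptor complex AP-1 packs cargo into clathrin-coated vesicles. Its medium chain has a widely expressed form, encoded by Ap1m1, and an epithelial form, encoded by Ap1m2, which directs receptors to the basolateral surface. Mal2 is a membrane protein of transcytosis from the basolateral to the apical side, and Lsr marks the corners where 3 epithelial cells meet and also acts as a lipoprotein receptor.

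The promoter windows of 5 members were matched by symbol in the RefSeq table (build GRCm38.p6), each running from 250 bases before to 50 after an annotated start site. They were searched for the E-box CAGGTG on both strands, so that a match reads CAGGTG or CACCTG on the gene's strand. It is the site class recognised by Zeb and Snail repressors of epithelial genes, and it was chosen for search with the gene results known. The windows of Rab25 and Ap1m2 are shown because these are the members with the largest differences between lines, that of Lsr because it holds as many matches as Ap1m2 but Lsr did not pass the test in any comparison, and that of Rab11a as the widely expressed relative of Rab25. Capitals mark the E-box matches, and each sequence runs 5′ to 3′ on the gene's strand, which is the minus strand for all 4. They lie at chr3:88548230-88548529 (Rab25), chr9:21312284-21312583 (Ap1m2), chr7:30973420-30973719 (Lsr) and chr9:64737707-64738006 (Rab11a).
Rab25: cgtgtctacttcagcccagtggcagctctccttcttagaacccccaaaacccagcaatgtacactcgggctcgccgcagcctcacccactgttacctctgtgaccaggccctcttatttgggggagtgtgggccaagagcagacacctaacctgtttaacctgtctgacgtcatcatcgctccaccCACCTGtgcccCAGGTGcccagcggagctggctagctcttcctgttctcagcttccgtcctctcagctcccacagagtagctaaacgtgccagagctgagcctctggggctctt
Ap1m2: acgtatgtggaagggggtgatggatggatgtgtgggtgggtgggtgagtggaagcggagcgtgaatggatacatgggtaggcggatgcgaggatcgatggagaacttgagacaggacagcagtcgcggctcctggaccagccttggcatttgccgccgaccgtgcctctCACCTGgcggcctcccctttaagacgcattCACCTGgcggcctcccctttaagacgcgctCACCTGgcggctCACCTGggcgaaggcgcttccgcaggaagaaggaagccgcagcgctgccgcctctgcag
Lsr: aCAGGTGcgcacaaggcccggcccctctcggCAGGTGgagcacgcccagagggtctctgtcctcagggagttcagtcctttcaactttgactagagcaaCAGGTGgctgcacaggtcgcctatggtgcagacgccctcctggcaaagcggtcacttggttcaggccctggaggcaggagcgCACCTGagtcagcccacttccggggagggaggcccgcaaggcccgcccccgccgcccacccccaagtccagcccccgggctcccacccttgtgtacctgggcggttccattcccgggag
Rab11a: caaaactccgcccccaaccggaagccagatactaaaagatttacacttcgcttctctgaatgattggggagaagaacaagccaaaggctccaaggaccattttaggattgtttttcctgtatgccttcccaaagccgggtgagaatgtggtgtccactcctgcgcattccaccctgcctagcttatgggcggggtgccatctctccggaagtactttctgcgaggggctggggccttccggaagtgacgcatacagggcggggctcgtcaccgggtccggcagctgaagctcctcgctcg

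The Rab25 window held 2 E-box matches, whose first bases lie at -64 and -53 from the start site and which read in opposite directions. The Ap1m2 window held 4, at -81, -51, -21 and -9, all reading the same way. The first and second of these lie in 2 exact copies of a 28-base stretch, tCACCTGgcggcctcccctttaagacgc, set 30 bases apart. The Lsr window held 4 at -249, -219, -151 and -69. The windows of Rab11a and Rab11b held 0, which says only that these letters are not in these windows. At least 1 match was found in 20.2% of all 32851 windows of this length, at least 2 in 2.88% and at least 4 in 0.0548%. CpG dinucleotides numbered 9 in the Rab25 window, 23 in that of Ap1m2 and 16 in that of Lsr, against a median of 7 over all windows. The windows of Rab11a and Rab11b held 16 and 12. Of all windows 54.2% held fewer than that of Rab25. No binding or methylation was measured in these samples.

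**Figure D1:**
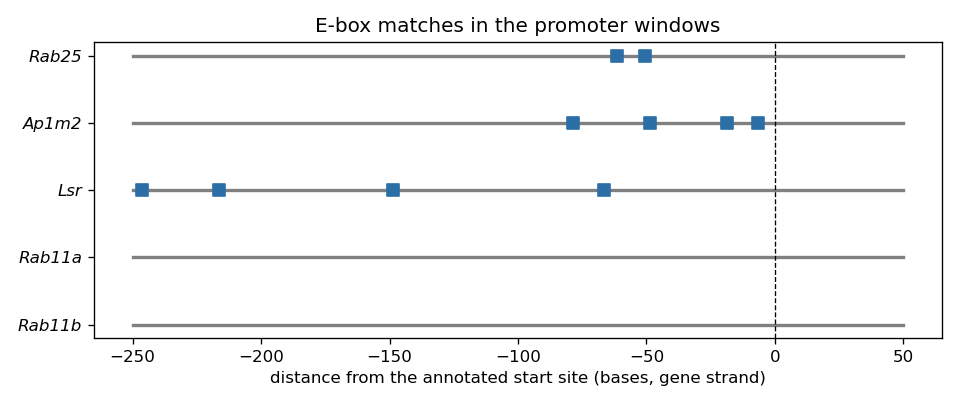
E-box matches (squares) in the promoter windows of 5 genes, by distance in bases from the annotated start site (dashed line) on the gene's strand; grey lines are the windows searched. Rab25 has 2 matches, Ap1m2 4 and Lsr 4, and Rab11a and Rab11b have 0.

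Before the comparisons, the array 393P replicate 1 is described, because it stood out in an RNA control. The 3′ probe set of the actin control gave 1.47 times the 5′ signal there, which bears on RNA integrity, against 1.04 to 1.19 on the other 11 arrays, and it had the lowest Rab25, Ap1m2 and Lsr levels of its line. The changes of Rab25, Ap1m2, Ap1m1, Mal2 and Lsr in 344SQ against 393P are therefore also given without it. So are those of Ap1m2 and Lsr in 393LN against 393P. The median log2 intensity of an array (no pseudocount) was 7.19 to 7.29, and 0 of 66 pairs of arrays were identical. On the first principal component, which held 35.5% of the variance, the 344SQ arrays lay between -43.4 and -40.8 and the 393LN and 393P arrays between 10.1 and 27.4. On the second, 393P replicate 1 lay at 39.4 and 393LN replicate 3 at -38.4, with all other arrays between -17.5 and 16.9. 393P replicate 1 was thus not the only array far from the rest.

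Against 393P, the vesicle sorting genes split in 344SQ. The epithelial forms Rab25 and Ap1m2 and the transcytosis gene Mal2 were lower, the widely expressed adaptor gene Ap1m1 was higher, and Rab11a, Rab11b, Rab11fip1, Myo5b and Lsr did not pass the test. Thus 3 of 9 members were lower and 1 higher, where 5.62% of all genes tested were lower and 4.86% higher (10.5% in all, adjusted p under 0.05). The arrays of 344SQ and 393P did not overlap for the same 3 lower members and 1 higher, as for 8.62% and 8.12% of all genes (16.7% in all). The median change was -0.16 over the 9 members and -0.00067 over all genes. Against 393LN the same 3 members were lower and the same 1 higher, where 6.92% of all genes were lower and 3.98% higher (10.9% in all). Here 4 members lay below 393LN and 1 above with no overlap, as did 10.7% and 6.72% of all genes (17.4% in all). Both comparisons share the 344SQ arrays, so their results are not independent. The members were chosen with earlier results known, so their counts beside these shares do not measure an enrichment.

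Rab25 had the largest change of the 9. Its probe set intensity was 58.9, 48.8, 84.4 and 24.8 on the 4 344SQ arrays. It was 3666, 5330.3, 4096 and 3040.3 on the 393LN arrays. On the 393P arrays it was 2856, 3616, 3743 and 3795. The 344SQ values lay far below both other lines with no overlap, and those of 393LN and 393P overlapped. The level averaged 6.06 ± 0.54 in 344SQ, 11.95 ± 0.34 in 393LN and 11.77 ± 0.19 in 393P (SD, n = 4 each). The log2 change in 344SQ was -5.71 against 393P (95% interval -6.25 to -5.17, adjusted p = 6.3e-08) and -5.89 against 393LN (-6.43 to -5.36, adjusted p = 4.35e-08). Among 18194 genes it was the 4th lowest change in the first comparison and the 3rd lowest in the second. Without 393P replicate 1 the change against 393P was -5.80. With a pseudocount of 1 in place of 16 it was -6.10, and with 64 it was -4.93. Rab25 has a single probe set, and the table gives no detection call, so whether the 344SQ signal is above background is not known.

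Its relatives did not follow. Rab11a had intensities of 4804, 5149, 4673 and 4705 in 344SQ. They were 5713, 5043, 4771 and 4905 in 393LN and 4973, 5793, 5442 and 5405 in 393P. The 344SQ range overlapped both others. The change against 393P was -0.16 (95% interval -0.36 to 0.04, adjusted p = 0.348), and against 393LN it was -0.08 (-0.28 to 0.13). The other Rab11a probe set had a change of 0.35 in 344SQ against 393P (adjusted p = 0.362), so the sign depends on the probe set while neither passed. On that other probe set 393P replicate 1 was at 9.47, and the remaining 393P arrays at 9.97 to 10.33. Rab11b ran from 4182 to 5113 in 344SQ, from 3822 to 4939 in 393LN and from 4211 to 4871 in 393P, ranges that overlapped throughout. Its change was 0.04 against 393P (-0.20 to 0.29, adjusted p = 0.867) and 0.08 against 393LN (-0.16 to 0.32), and its other 2 probe sets had changes of 0.24 and 0.02 against 393P, neither past the test.

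Whether Rab25 changed by another amount than its relatives was tested on the difference of levels within each array. Rab25 minus Rab11a averaged -6.18 ± 0.55 in 344SQ and -0.63 ± 0.13 in 393P, a shift of -5.55. Rab25 minus Rab11b shifted by -5.76 between the same lines. Each has an exact two-sided permutation p of 0.0286, the smallest that 4 against 4 arrays allow, and an adjusted p of 0.0429 over the 9 such tests made. Against 393LN the shifts were -5.81 and -5.97 with the same p. Between 393LN and 393P they were 0.26 and 0.21 (exact permutation, adjusted p = 0.321 for both). In Rab25 itself 344SQ lay far apart, and its relatives changed little. The permutation p of 0.0286 therefore followed from the levels above and is no separate support. The same holds for Ap1m2 minus Ap1m1 below, as both of those genes set 344SQ apart.

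**Figure D2:**
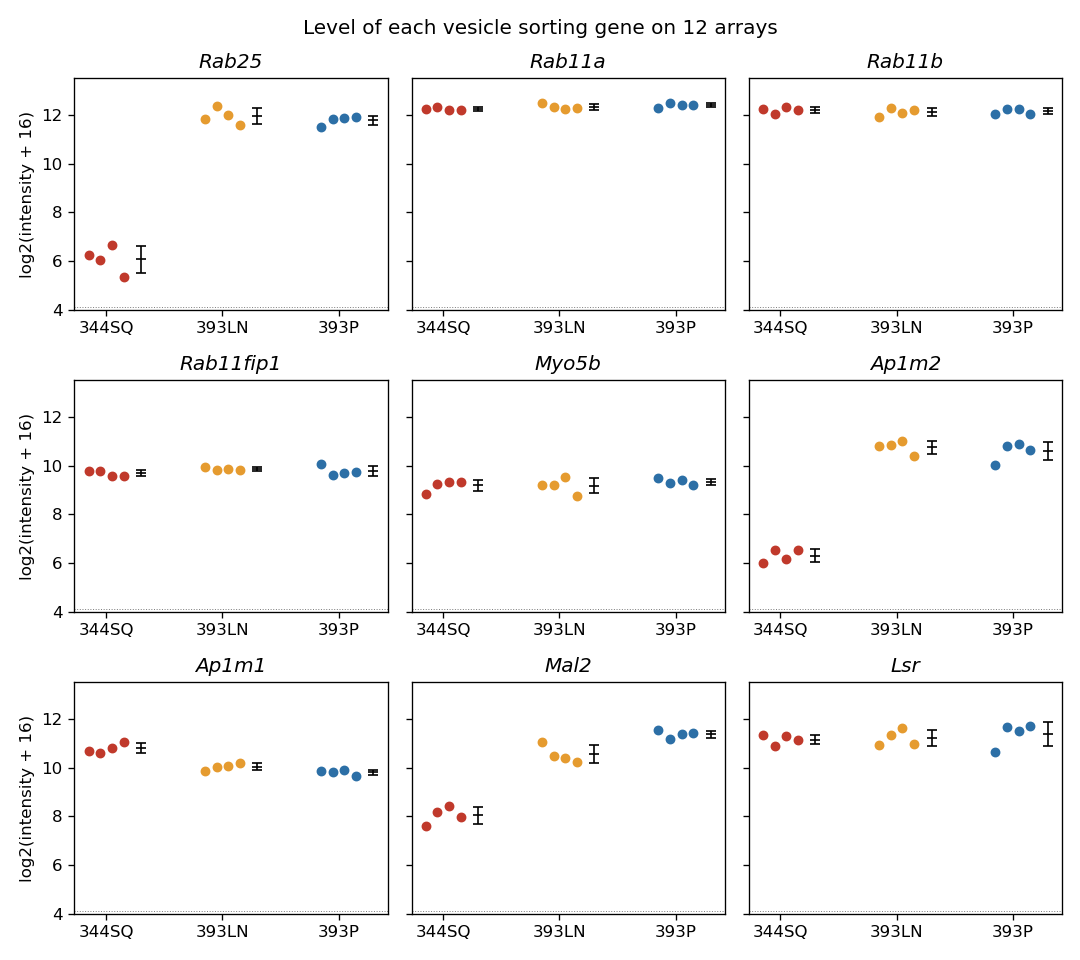
Level of each of the 9 genes on the 12 arrays, as log2(intensity + 16); points are arrays, bars the mean and SD of 4, and the dotted line the table's floor at 4.09. Rab25 and Ap1m2 lie between 5.35 and 6.65 in 344SQ and above 10 in both other lines, and Rab11a and Rab11b lie near 12 throughout.

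The partners of Rab11 proteins were measured too. Rab11fip1 encodes an effector that couples Rab11 proteins, Rab25 included, to the recycling of integrins and growth factor receptors. Its intensity ran from 734 to 867 in 344SQ, from 879 to 976 in 393LN and from 765 to 1053 in 393P. The change was -0.10 against 393P (95% interval -0.35 to 0.15, adjusted p = 0.680), and 344SQ and 393P overlapped. Against 393LN it was -0.18 (-0.43 to 0.07, adjusted p = 0.359). Every 344SQ value of Rab11fip1 lay below every 393LN value, although the test was not passed. Myo5b, the myosin motor that binds Rab11 on recycling endosomes, had intensities of 443 to 622 in 344SQ, 419 to 724 in 393LN and 568 to 699 in 393P. All 3 lines overlapped, and the changes of Myo5b were -0.16 against 393P (-0.51 to 0.20) and 0.01 against 393LN (-0.34 to 0.37). The level of Myo5b was 8.84 on 344SQ replicate 1 and 9.25 to 9.32 on the remaining arrays of that line. The changes of its other 2 probe sets in 344SQ against 393P were 0.43 and -0.09, neither past the test.

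The medium chains of AP-1 moved in opposite directions. Ap1m2, the epithelial form, had intensities of 48.2, 75.6, 54.6 and 75.6 in 344SQ. They were 1758, 1820.3, 2019.8 and 1323 in 393LN. In 393P they were 1031, 1795, 1859 and 1596. The 344SQ values were again far below the other lines, which overlapped each other. The change was -4.30 against 393P (95% interval -4.74 to -3.86, adjusted p = 1.32e-07, a 19.7-fold lower level) and -4.46 against 393LN (-4.90 to -4.02, adjusted p = 7.98e-08). These were the 15th and the 11th lowest changes among all genes. Without 393P replicate 1 the first was -4.49, and with a pseudocount of 1 or 64 it was -4.60 or -3.65.

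Ap1m1, the widely expressed form, had intensities of 1641, 1531, 1783 and 2120.2 in 344SQ. They were 917, 1031, 1053 and 1152 in 393LN and 904, 891, 929 and 798 in 393P. Every 344SQ value was above every value of the other lines. The rise was 0.98 against 393P (95% interval 0.73 to 1.24, adjusted p = 0.000241, 1.98-fold) and 0.75 against 393LN (0.50 to 1.01, adjusted p = 0.00195, 1.69-fold). Without 393P replicate 1 the first was 0.998. The other Ap1m1 probe set also rose, by 0.78 and 0.63 (adjusted p = 0.00668 and 0.0232 over all probe sets with 1 symbol). The difference Ap1m2 minus Ap1m1 averaged -4.50 ± 0.29 in 344SQ and 0.79 ± 0.40 in 393P, a shift of -5.29 (exact permutation p = 0.0286, adjusted p = 0.0429). Against 393LN the shift was -5.21 with the same p, and between 393LN and 393P it was -0.07 (exact permutation, adjusted p = 0.486). Probe sets differ in brightness per transcript, so these differences compare lines and do not give the ratio of the 2 chains.

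**Figure D3:**
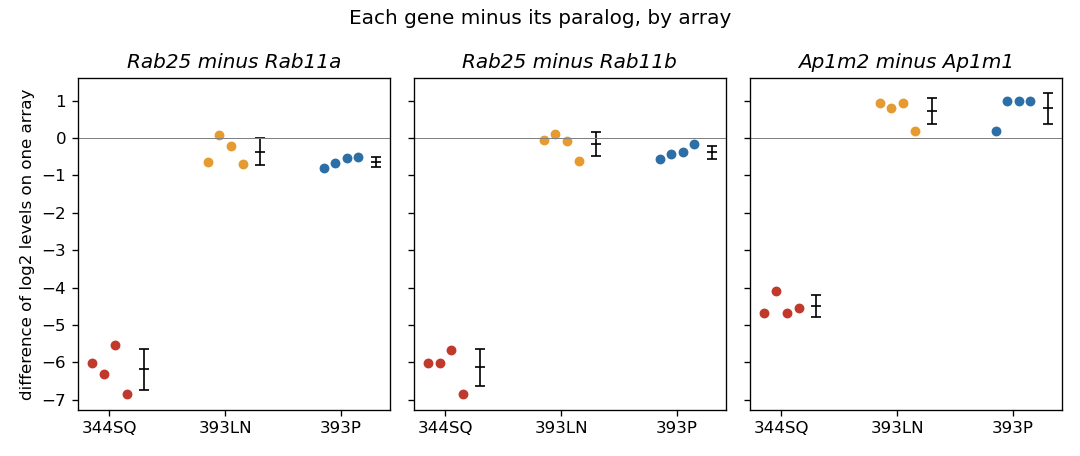
Rab25 minus Rab11a, Rab25 minus Rab11b and Ap1m2 minus Ap1m1 on each array, as differences of log2 levels; points are arrays, bars the mean and SD of 4. The 344SQ arrays lie between -6.86 and -4.08 and the arrays of 393LN and 393P between -0.80 and 0.997.

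Mal2 was the only one of the 9 members to pass the test in all 3 comparisons. Its intensity was 180, 269, 324 and 232 in 344SQ. It was 2135, 1418, 1323 and 1184 in 393LN and 2957, 2320.1, 2610.3 and 2702 in 393P. The 3 lines did not overlap, with 344SQ lowest, then 393LN, then 393P. The change in 344SQ was -3.34 against 393P (95% interval -3.77 to -2.91, adjusted p = 1.0e-06, 10.1-fold lower) and -2.51 against 393LN (-2.94 to -2.08, adjusted p = 1.22e-05, 5.70-fold lower). Without 393P replicate 1 the first was -3.29.

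Lsr, in contrast, did not pass in any comparison. Its intensity was 2539, 1872, 2487 and 2210.3 in 344SQ. It was 1911, 2539, 3104 and 1965 in 393LN and 1563, 3214, 2916 and 3304 in 393P. The 393P arrays held both the lowest and the highest values, the lowest on replicate 1. The change in 344SQ was -0.22 against 393P (95% interval -0.73 to 0.29, adjusted p = 0.650) and -0.04 against 393LN (-0.56 to 0.47, adjusted p = 0.934). Without 393P replicate 1 the change against 393P was -0.47 (adjusted p = 0.121). A second Lsr probe set was dim, with a mean level of 5.92, and changed by -0.05 against 393P without passing.

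**Figure D4:**
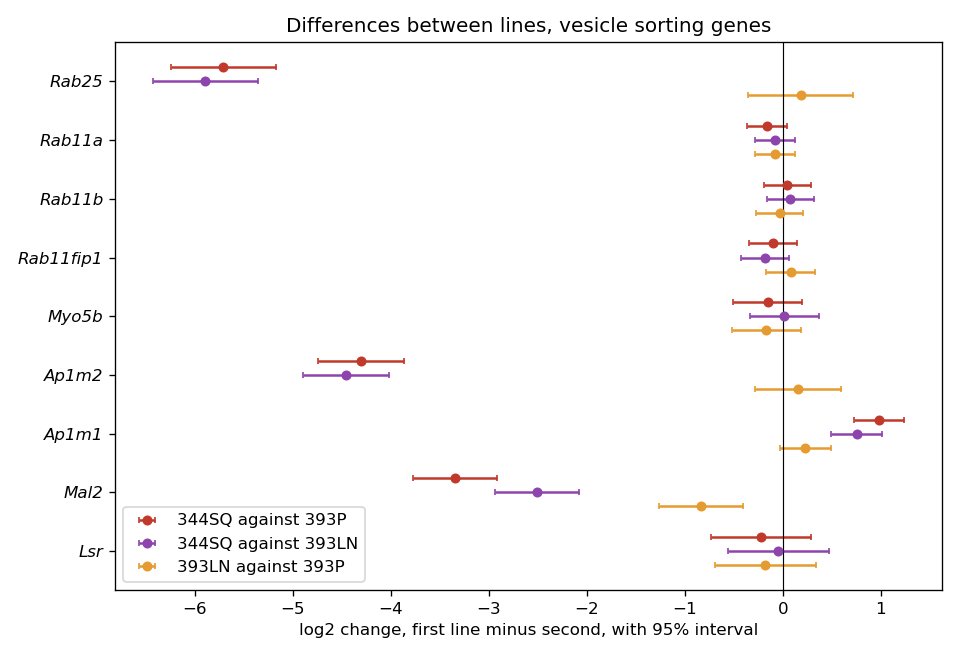
Log2 change of each of the 9 genes in 3 comparisons of lines, the first line minus the second, with 95% intervals from the fit over 12 arrays. Rab25, Ap1m2 and Mal2 lie left of 0 and Ap1m1 right of 0 in both comparisons with 344SQ, and only Mal2 clears 0 between 393LN and 393P.

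Between 393LN and 393P, which came from a lymph node and a primary tumour of the same mouse, 1 of 9 members was lower and 0 higher, where 0.698% of all genes were lower and 1.75% higher (2.45% in all). By limma 0 members were higher at an unadjusted p under 0.05 as well, by the probe set used for each, where 1824 of all 18194 genes were. The member that fell was Mal2, with a change of -0.83 (95% interval -1.26 to -0.40, adjusted p = 0.0493). All 4 of its 393LN values lay below all 4 of 393P, as for 3.57% of all genes, while 6.69% lay above without overlap (10.3% in all). The call was at the edge of the threshold and ended when any of 9 of the 12 arrays was left out (344SQ replicate 2 or 4, 393LN replicate 2, 3 or 4, or any of 393P), with changes of -0.89 to -0.73 and adjusted p of 0.0614 to 0.139. Rab25 had a change of 0.18 (-0.35 to 0.72), Ap1m2 one of 0.16 (-0.28 to 0.60) and Ap1m1 one of 0.23 (-0.03 to 0.49), none past the test. The changes of Rab11a, Rab11b, Rab11fip1, Myo5b and Lsr lay between -0.18 and 0.08. Without 393P replicate 1 the change of Ap1m2 was -0.03 and that of Lsr -0.43, neither past the test. The second Rab11a probe set went the other way from the first, with a change of 0.55 against -0.08 (unadjusted p = 0.016, adjusted p = 0.20 by limma), and did not pass. On it 393P replicate 1 was the lowest array of its line (9.47, others 9.97 to 10.33). 393LN replicate 1 was the highest of its line (11.02, others 10.28 to 10.51).

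Lists of genes that work beside the 9 members, chosen with earlier results known, were counted in the same fit. Over the 6 lists together 10 of 110 measured genes rose and 11 fell in 344SQ against 393P, where 4.86% of all genes were higher and 5.62% lower, and each count below is to be read against those shares. In 344SQ against 393P, of 30 genes of Rab11 effectors and recycling endosomes 5 rose and 1 fell, with a median change of 0.05. Myo5a, a myosin motor of vesicle transport related to Myo5b, rose by 1.06 ± 0.11 (SE, adjusted p = 7.44e-05), with levels of 9.22 ± 0.18 in 344SQ and 8.16 ± 0.04 in 393P. In 393LN it was at 9.08 ± 0.11, also higher than in 393P (change 0.92, adjusted p = 0.00233), and of its other 2 probe sets 1 passed in 344SQ against 393P. Zfyve27, which encodes the Rab11-binding protein protrudin, rose by 0.53 (adjusted p = 0.00762), although none of its other 3 probe sets passed. Rab11fip5, a further Rab11 effector gene, fell by 0.48 (adjusted p = 0.016), and by 1.56 on its other probe set (adjusted p = 0.00355). The Rab11 effector gene Wdr44 rose by 0.71 (adjusted p = 0.0205). The call of Rab11fip5 ended without 344SQ replicate 2 or 393P replicate 3 (highest adjusted p 0.0510) and that of Wdr44 without any of 4 arrays (344SQ replicate 1 or 2, 393P replicate 2 or 4; highest adjusted p 0.0626). The number that rose in this list was 2 to 6 with 1 array left out, and 2 or 3 without any single array of 344SQ, without 393LN replicate 4, or without 393P replicate 2, 3 or 4. Of the 8 exocyst subunits, which tether vesicles to the plasma membrane, 0 rose and 0 fell by limma. At an unadjusted p under 0.05, 1 of the 8 was higher and 1 lower, as were 2052 and 2240 of all 18194 genes (23.6% together).

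Among 26 other adaptor and clathrin genes 1 rose and 2 fell in 344SQ against 393P, with a median of -0.01, counts near the shares over all genes (4.86% higher, 5.62% lower). With 1 array left out 1 to 2 rose and 1 to 3 fell. Ap1s3, a small chain of AP-1, fell by 1.14 ± 0.23 (adjusted p = 0.00747), with levels of 8.37 ± 0.38 in 344SQ and 9.50 ± 0.15 in 393P, and it fell by 1.39 against 393LN (adjusted p = 0.00250). Ap1g2, a large chain of AP-1, fell by 0.55 (adjusted p = 0.0293), but not once any of 6 arrays was left out (344SQ replicate 1, 2 or 4, 393P replicate 1, 2 or 3; highest adjusted p 0.0730). Ap2a2, a large chain of the endocytic adaptor AP-2, rose by 0.56 (adjusted p = 0.0146), and 1 of its other 4 probe sets passed the same way.

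Of 14 further genes of the MAL family, of MARVEL domain proteins and of the angulin family to which Lsr belongs, 4 fell and 2 rose in 344SQ against 393P, with a median of 0.02. Without 393P replicate 2, 3 or 4, 2 fell in place of 4, and without 344SQ replicate 2, 1 rose in place of 2. Mal, which encodes a raft protein of apical transport related to Mal2, fell by 2.84 ± 0.41 (adjusted p = 0.00101), and a second probe set gave a change of -2.41 (adjusted p = 0.00711). The Mal level was 8.75 to 8.89 on 3 of the 344SQ arrays and 10.61 on replicate 4, against 11.80 to 12.33 in 393P, and without replicate 4 the change was -3.29. The tight junction gene Marveld3 fell by 2.36 ± 0.25 (adjusted p = 9.8e-05), and 1 of its other 2 probe sets passed the same way. Marveld1 rose by 1.13 (adjusted p = 0.0107) and the angulin gene Ildr2 by 0.50 (adjusted p = 0.0189). Neither rise passed on any other probe set of its gene, and that of Ildr2 ended without 344SQ replicate 2 (adjusted p = 0.0506).

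Among 23 measured genes of polarised exocytosis 2 rose and 3 fell, with a median of 0.01, beside 4.86% and 5.62% of all genes. Stx3, the syntaxin of the apical membrane, fell by 1.98 ± 0.15 (adjusted p = 1.05e-05). Its intensity ran from 798 to 982 in 344SQ, from 2149.8 to 3616 in 393LN and from 3126 to 3743 in 393P, so 344SQ lay below both. The other 3 Stx3 probe sets passed too, with changes of -1.86, -2.27 and -2.35. Vamp7, a SNARE of late endosomes and lysosomes, rose by 0.85 (adjusted p = 0.00101), and also rose in 393LN, by 0.94 against 393P (adjusted p = 0.00422). A second Vamp7 probe set gave 0.50 in 344SQ against 393P and did not pass. Rab27b, a GTPase of secretory granules, rose by 0.59 (adjusted p = 0.0128). Its other probe sets gave changes of 0.99 (adjusted p = 0.0062), 0.72 and 0.29, and the last 2 did not pass (adjusted p = 0.235 and 0.203). Sytl1, which encodes a Rab27-binding protein, lay at the floor on 3 of the 344SQ arrays and at 4.11 on replicate 4, against 4.91 ± 0.24 in 393P, so its fall (adjusted p = 0.0122) has no size that can be read from these values. Of 9 cargo genes 0 rose and 1 fell: Pigr, the receptor that carries antibodies across epithelia, by 0.97 (adjusted p = 0.00480), while its other probe set did not pass (change -0.50).

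**Figure D5:**
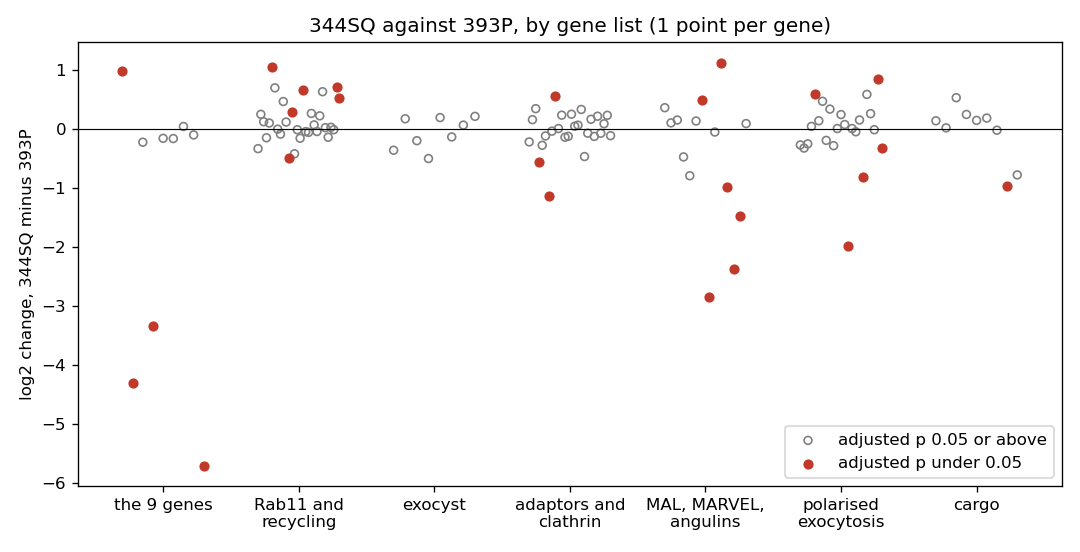
Log2 change in 344SQ against 393P of the 9 genes and of 6 lists of related genes; each point is a gene, filled where the adjusted p is under 0.05. The falls of Rab25, Ap1m2 and Mal2 lie below those of every gene in the other lists.

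Against 393LN, 9 of the 110 genes were higher in 344SQ and 10 lower, where 3.98% of all genes were higher and 6.92% lower. In the recycling list 344SQ had 0 genes higher and 1 lower (at an unadjusted p under 0.05 it had 2 and 3 of 30, beside 1922 and 2750 of all 18194 genes). Among the exocyst genes 1 was higher and 1 lower at the adjusted threshold, and among the adaptor genes 2 higher and 4 lower. In the MAL, MARVEL and angulin list 2 were higher and 2 lower, in that of polarised exocytosis 2 higher and 1 lower, and among the cargo genes 2 higher and 1 lower. These small counts moved with single arrays left out: 0 to 2 cargo genes were higher (0 without 344SQ replicate 1, 2 or 3, or 393LN replicate 1 or 4), 1 to 3 exocytosis genes higher, 1 to 3 adaptor genes higher and 2 to 4 MAL, MARVEL and angulin genes lower. The 2 lowest of these genes were again Marveld3 (change -2.38, adjusted p = 0.00012) and Mal (change -2.10, adjusted p = 0.00757). Stx3 fell by 1.79 (adjusted p = 2.53e-05) and Rab27b rose by 1.07 (adjusted p = 0.000393). The other Rab27b probe sets gave 1.31 (adjusted p = 0.00132), 0.89 and 0.28, and the last 2 did not pass. Myo5a and Vamp7, which rose against 393P, had changes of 0.14 and -0.09 here and did not pass.

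In 393LN against 393P, 4 of the 110 genes rose and 0 fell, where 1.75% of all genes were higher and 0.698% lower: Myo5a and Vamp7 (above), the exocyst gene Exoc8 by 0.55 (adjusted p = 0.0352) and Ap4s1, a small chain of the adaptor AP-4, by 0.68 (adjusted p = 0.0148). The call of Exoc8 ended without any of 7 arrays (393LN replicate 1, 2 or 3, or any of 393P; highest adjusted p 0.0990) and that of Ap4s1 without 393P replicate 3 (adjusted p = 0.0529).

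The tumours hold host cells beside tumour cells, and in such bulk samples fewer cells of a type and less RNA per cell cannot be told apart. Of 15 epithelial markers measured 8 were lower in 344SQ than in 393P and 0 higher. The 8 were the splicing factor gene Esrp1 (change -7.06), the claudin genes Cldn4 (-4.73), Cldn3 (-4.09) and Cldn7 (-3.80), the protease gene St14 (-4.35), its inhibitor gene Spint1 (-1.53), the adhesion gene Epcam (-3.82) and the transcription factor gene Elf3 (-1.49). The summed intensity of all 15 ran from 70187 to 77079 in 344SQ, from 91504 to 114075 in 393LN and from 94393 to 122688 in 393P. Its medians were 72283, 102690 and 120627. The sum was thus lower in 344SQ, as Rab25, Ap1m2 and Mal2 were. A sum of intensities leans on its brightest markers, among them Krt8, Krt18 and Cdh1, which did not pass. Its factor therefore cannot be set against that of single genes. Of the 8 markers above, Spint1 and Elf3 fell by less than Mal2 (-3.34) and the rest by more. The sums of 393LN and 393P overlapped. The other 7, which did not pass, had changes from -0.36 (Krt7) to 0.12 (Cdh1). Among them, the keratin genes Krt8 and Krt18 and the E-cadherin gene Cdh1 had changes of -0.00, -0.06 and 0.12 in 344SQ against 393P, with mean levels from 13.33 to 14.28 over the 3 lines. The summed intensity of 10 fibroblast markers ran from 55782 to 68198 in 344SQ, from 39571 to 59046 in 393LN and from 39831 to 55420 in 393P. That of 10 macrophage markers ran from 20492 to 34221 in 344SQ, from 28578 to 44375 in 393LN and from 31627 to 51008 in 393P. Of these, 3 were lower in 344SQ than in 393P (changes of -1.26 for Aif1, -0.92 for Tyrobp and -0.75 for Cd14) and 0 higher, and 2 were lower than in 393LN. The summed intensity of 6 neutrophil markers ran from 2296 to 19267 in 344SQ, from 4050 to 9599 in 393LN and from 8581 to 18454 in 393P, and 1 of them, Il1b, was lower in 344SQ than in 393P (change -1.34). Of the fibroblast markers limma called 0. At an unadjusted p under 0.05, 5 of the 10 were higher in 344SQ than in 393P, as were 2052 of all 18194 genes. No marker of these 4 lists was at the floor on all arrays. Markers of endothelial, B and plasma, mast, muscle and fat cells were also counted, and limma called 0 of them in any comparison. Of 7 T and NK cell markers it called 1 in 344SQ against 393P, where 4.86% of all genes were higher. This was Cd2 (change 0.94, adjusted p = 0.0162), and 0 were called in the other comparisons. The part of host cells in the results for the 9 members was not tested.

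The genes whose levels were most like those of Rab25 over the 12 arrays, among 1969 genes with an SD of at least 0.5, were Tmc4 (Pearson r = 0.997), Esrp1 (0.990), Lama3 (0.988), S100a14 (0.988), Macc1 (0.988) and Reep6 (0.986). For Ap1m2 they were S100a14 (0.992), Esrp1 (0.991) and Lama3 (0.989), and for Mal2 they were Klc3 (0.986), Tmem30b (0.984) and Cwh43 (0.982). These are descriptions over 12 arrays in 2 clusters, 344SQ and the rest, which the difference between clusters dominates. Over the 8 arrays of 393LN and 393P alone r with Rab25 was 0.81 for Tmc4, 0.39 for Esrp1 and 0.36 for Macc1, while r with Mal2 was 0.985 for Tmem30b and 0.924 for Klc3. Over the same 8 arrays Rab25 and Ap1m2 had an r of 0.75, and Rab25 and Mal2 one of -0.33. Of these arrays 393P replicate 1 had the lowest level of both Rab25 (11.49) and Ap1m2 (10.03), and r without it is not given here. For Lsr, whose lines overlap, the most alike genes were Bcam (0.871), P2ry2 (0.813) and Rara (0.797). Lsr and Bcam were both low on 393P replicate 1 (10.62 and 9.23), below the ranges of the other 393P arrays (11.52 to 11.70 and 10.96 to 11.22). The share of that array in their r was not tested.

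The genes next to the 4 members that passed in 344SQ against 393P are given as a description. Of the 16 genes nearest to Rab25, Ap1m1, Ap1m2 and Mal2 on either side (2 each, by gene order in the RefSeq table of assembly GRCm38.p6), limma called 0 in any of the 3 comparisons, and 4 of them in 344SQ against 393P, 5 in 344SQ against 393LN and 2 in 393LN against 393P had an unadjusted p under 0.05. Over all genes 23.6%, 25.7% and 15.7% had such a p in the same comparisons and 10.5%, 10.9% and 2.45% were called, so these counts of 16 do not set the neighbours apart. In 344SQ against 393P their changes ran from -1.43, for Tnfrsf11b near Mal2, to 0.43, for Lmna near Rab25. The nearest tested genes to Rab25, Mex3a and Lamtor2, had changes of 0.05 and -0.52 (adjusted p = 0.877 and 0.0619). Those nearest to Ap1m2, Cdkn2d and Slc44a2, had changes of 0.29 and -0.49 (adjusted p = 0.691 and 0.208).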

How the data were processed

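Probe set intensities were used as deposited, on a linear scale from 1 to 21921; their summarisation and normalization software: not given in the sources used here. RNA was isolated with an Ambion kit and labelled with biotin, per the labels' protocols. No scan or batch labels were used, and 0 columns of values were left unmapped. Levels were log2(intensity + 16) with no further normalization or filter on dim genes. In R 4.3.3, limma 3.58.1 (functions lmFit and eBayes, 9 residual degrees of freedom) estimated the 3 line means from all arrays together, and p-values, two-sided, were adjusted by Benjamini-Hochberg over 18194 genes. Other probe sets were fitted likewise and adjusted over 34958. Rose and fell mean an adjusted p under 0.05.

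The members and lists were chosen with earlier results of these data known. Listed genes without a probe set of a single symbol were not tested. Named genes were all members; per list, the up to 4 with the smallest p that passed in 344SQ against 393P, up to 2 going the other way, and up to 2 that passed in 393LN against 393P; the genes most correlated with Rab25, Ap1m2, Mal2 and Lsr; and the 2 nearest neighbours on each side. Alternatives were other scalings, pseudocounts, filters, probe set choices, priors and samples. The scripts were tested on simulated data. The number of arrays limits the precision.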

Additional observations from a re-analysis of the deposited data

Results flagged for a closer look

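Within each line the highest or lowest of the 4 arrays was examined for a gap to its nearest neighbour that is wide for the line's whole range (Dixon's test at 95%). Over 39 genes and 3 lines, 10 of 117 groups had such an array. Chance gives about 1 in 20 of independent groups. These groups are not independent, as they share arrays and some genes, such as Bcam, were taken for their likeness to a member. The count therefore does not measure an excess over chance. Levels are log2(intensity + 16).

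Of these, 4 were on 393P replicate 1, the array with the highest ratio of actin signals. Rab25 was at 11.49 there (11.83 to 11.90 on the other 393P arrays), Lsr at 10.62 (11.52 to 11.70), Bcam at 9.23 (10.96 to 11.22) and Ap1g2 at 9.11 (8.63 to 8.71). A further 3 were on 344SQ replicate 4. Mal was at 10.61 there (8.75 to 8.89 on the other 344SQ arrays), Marveld3 at 7.13 (8.12 to 8.25) and Sytl1 at 4.11, the others being at the floor of 4.09. Myo5b was at 8.84 on 344SQ replicate 1 (9.25 to 9.32 on the others), Lama3 at 6.45 on 344SQ replicate 3 (6.86 to 6.94) and Wdr44 at 7.57 on 393P replicate 3 (7.45 to 7.47).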

How the results depend on the processing

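No paired analysis was possible because the replicate numbers follow accession order and the labels name no shared animal or day. In 344SQ against 393P and against 393LN, 3 members were lower and 1 higher under all 22 alternatives. The fall of Mal2 in 393LN against 393P was not called (0 members lower in place of 1) with a pseudocount of 1, with the mean of all probe sets, with the probe set of largest variance or with only the 2 lines compared (adjusted p = 0.0729, 0.0502, 0.0600 and 0.0755), and the count was 0 to 1 when an array was left out. The cause was not tested. In that comparison 174 genes in all were called with only the 2 lines, in place of 446, and 156 to 438 with an array left out. In 344SQ against 393P the number was 1259 to 1932 with an array left out, in place of 1907, the lowest without 393P replicate 3. In 344SQ against 393LN it was 1167 to 2482, in place of 1984, the lowest without 344SQ replicate 2. The differences between relatives kept their side of the threshold under every alternative run for them. Without a detection call, signal over background limits what the lowest values can show.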
